A study of Homo sapiens with 19 samples.

Results

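A set of 10 transcripts of 9 genes known as markers or regulators of the epithelial-mesenchymal transition was followed across siRNA against STAT3, siRNA against HMGN5 and addition of HMGN5 in MDA-MB-231 cells. They were chosen by name, with earlier results of these data known. The list comprised 2 transcripts of VIM (ENST00000224237.9 and ENST00000544301.6) and 1 each of SPARC (ENST00000231061.8), FN1 (ENST00000354785.8), SNAI1 (ENST00000244050.2), SNAI2 (ENST00000396822.6), ZEB1 (ENST00000361642.9), TWIST1 (ENST00000242261.5), CDH1 (ENST00000261769.9) and CDH2 (ENST00000269141.7), out of 175775 transcripts measured. All 10 were present in the tables of all 17 RNA libraries. SPARC and VIM fell in empty-vector cells with STAT3 siRNA, and SPARC fell further when HMGN5 was also delivered.

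MDA-MB-231 is an established human line of triple-negative breast cancer with a mesenchymal shape. STAT3 is a transcription factor activated through cytokine receptors, and HMGN5 belongs to the HMGN proteins, which bind nucleosomes and loosen compact chromatin. In the siRNA experiment, cells received an siRNA against STAT3 (siSTAT3, n = 2), an siRNA against HMGN5 (siHMGN5, n = 2) or a control siRNA (NC, n = 4), with no lentivirus. In the lentiviral experiment, cells received STAT3 siRNA and lentiviral HMGN5 (siSTAT3_HMGN5, n = 3), STAT3 siRNA and empty vector (siSTAT3_Vec, n = 3) or control siRNA and empty vector (NC_Vec, n = 3). Each siRNA was used at 30 nM with a lipid reagent, so all 6 groups were transfected and all 3 groups of the lentiviral experiment were also infected. The siRNA sequences, the promoter of the lentivirus and the time of harvest are not given in the sources used here. Nothing in the labels says that replicates were separate cultures, so p-values measure the spread between these libraries, which may be technical. A further 2 samples, of histone acetylation, were not analysed here.

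In an epithelial-mesenchymal transition, cells lose the junctions that hold an epithelial sheet together and gain motility. Repressors of the SNAI and ZEB families bind E-box sequences in promoters of epithelial genes such as CDH1, which encodes E-cadherin, while the intermediate filament vimentin, N-cadherin and matrix proteins such as fibronectin increase. Breast cancer lines of the basal B class, MDA-MB-231 among them, are known for abundant vimentin and absent E-cadherin.

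Libraries held 19114033 to 19509422 estimated reads in the siRNA experiment and 22500086 to 23047081 in the lentiviral one. CPM values are estimated reads scaled by library size and TMM factors within each experiment, and 3 reads correspond to 0.154 to 0.157 CPM in the siRNA libraries and 0.130 to 0.133 CPM in the lentiviral ones. NC replicates 1 and 2 stood apart from NC replicates 3 and 4: 3262 of 74346 transcripts (4.39%) differed at an adjusted p under 0.05 (edgeR quasi-likelihood test, Benjamini-Hochberg adjustment). Results that rest on NC are therefore also given against each pair. In those fits all libraries were kept, with each NC pair as a group of its own. Transcripts are paired with gene names here only for the 10 listed, so the levels of STAT3 and HMGN5, and other transcripts of the same genes, were not examined. Each value below is that of 1 transcript, and estimated reads can be divided differently among transcripts of a gene from library to library. Where groups are said not to overlap, the share of all transcripts that did the same was not counted. SNAI1 had whole numbers of reads in all 17 libraries (within 0.0015 of a whole number), and no other listed transcript did.

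The VIM transcript ENST00000224237.9 was abundant and the listed CDH1 transcript almost absent, while the listed FN1, ZEB1, SNAI2 and CDH2 transcripts were low. In TPM, deposited values that correct for transcript length, the main VIM transcript (ENST00000224237.9, 1868 bases) had 557 to 922 TPM over the 17 libraries, with a median of 648 TPM. It ranked between 60 and 120 by group mean among 169573 transcripts of at least 300 bases. SNAI1, which encodes the repressor Snail, came next with 2.34 to 5.43 TPM. SPARC, which encodes the collagen-binding matrix protein osteonectin, had 0.312 to 3.13 TPM, and the FN1 transcript had 0 to 1.04 TPM. The CDH1 transcript was listed at 0 in 14 of 17 libraries and reached at most 0.272 TPM. CDH2 (N-cadherin) reached 0.186 TPM, ZEB1 0.352 TPM and the 626-base SNAI2 transcript 1.21 TPM at most. TWIST1, a basic helix-loop-helix factor, was listed at 0 in every library, where a count of 0 allows up to 3 reads.

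**Figure D1:**
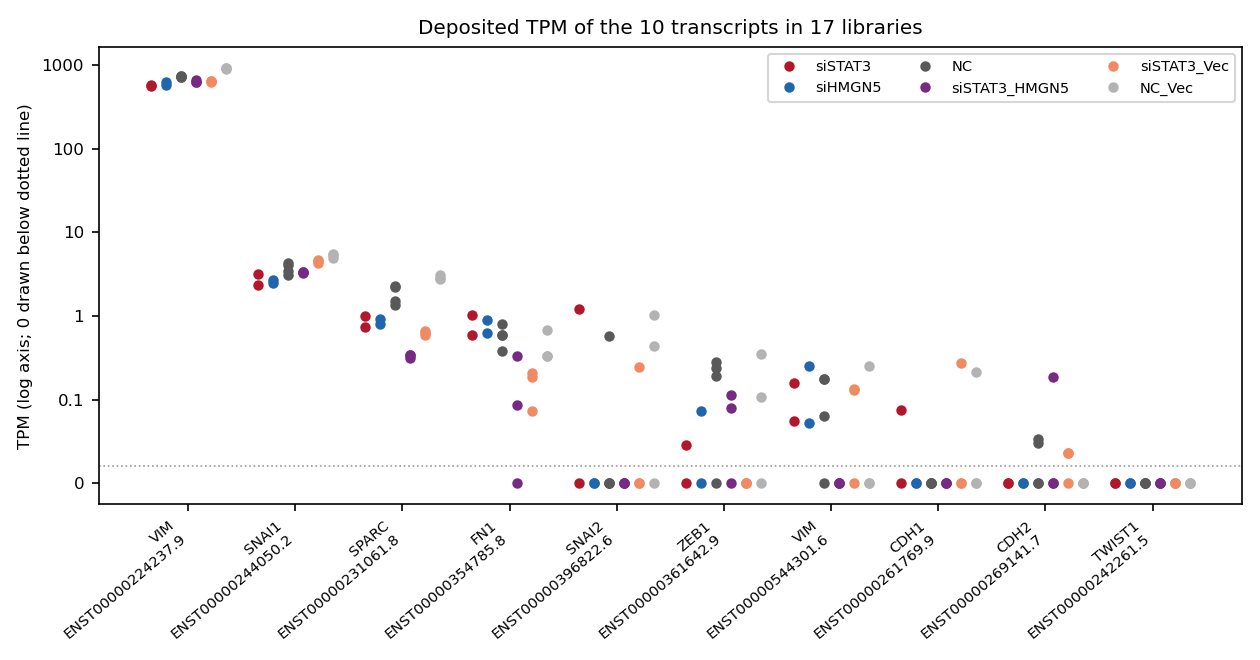
Deposited TPM (log axis, with 0 drawn below the dotted line) of the 10 transcripts in the 17 libraries, 1 point per library, coloured by group. The main VIM transcript lies between 557 and 922 TPM, and TWIST1 is at 0 in all 17 libraries.

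The 2 VIM transcripts differed greatly in level. The longer one (ENST00000544301.6, 2135 bases) was listed at 0 in 7 libraries and took at most 0.0478% of the reads assigned to the pair. The main transcript by itself took 0.190% to 0.288% of all reads of a library. Summing both before the fit left each VIM call as it was. VIM below means the main transcript unless stated otherwise.

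VIM and SPARC are the 2 genes whose transcripts were called against NC_Vec in both vector comparisons, so, chosen for this after their values were seen, the 250 bases before their annotated starts are shown. Sequences are from RefSeq (GRCh38.p14) and run 5′ to 3′ on the strand of the gene. Windows were taken by gene name and were not matched to the listed transcripts. A window may therefore not lie before the start of the transcript that was called. The VIM gene lies on the plus strand at chr10:17228241-17237593, and the window is chr10:17227991-17228240. The SPARC gene lies on the minus strand at chr5:151661096-151686915, and the window is chr5:151686916-151687165. Capitals mark an E-box.
VIM: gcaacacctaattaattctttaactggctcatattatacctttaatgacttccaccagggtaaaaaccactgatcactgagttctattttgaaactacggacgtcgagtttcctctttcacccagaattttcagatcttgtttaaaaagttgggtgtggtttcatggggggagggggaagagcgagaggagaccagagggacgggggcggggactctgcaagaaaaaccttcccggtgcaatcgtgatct
SPARC: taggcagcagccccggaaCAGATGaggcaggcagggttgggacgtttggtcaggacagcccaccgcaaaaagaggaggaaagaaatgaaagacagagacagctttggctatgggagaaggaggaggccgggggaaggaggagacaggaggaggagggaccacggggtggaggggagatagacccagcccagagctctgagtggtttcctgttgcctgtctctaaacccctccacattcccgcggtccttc

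A set of 3 motifs was searched on both strands of these windows. The first was the STAT motif TTCNNNGAA, present in 6.57% of 35116 RefSeq promoter windows of the same length. The second was the E-box CANNTG, present in 61.8% of them. The third, CACCTG or CAGGTG, is the E-box form bound by ZEB and SNAI proteins, overlaps the second and was present in 17.5%. The VIM window held none of the 3. The SPARC window held 1 match, the E-box CAGATG 232 bases before the start. RefSeq windows were at hand for 5 of the 9 genes (12 windows for VIM, SPARC, FN1, ZEB1 and CDH2), and none of the 12 held TTCNNNGAA. The CACCTG or CAGGTG form was found only in 2 of the 7 ZEB1 windows, 57 bases before the start in one and 85 and 242 bases before it in the other.

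SPARC showed the largest called change among the 10 transcripts in the lentiviral experiment. It had 3.98, 4.28 and 4.54 CPM in siSTAT3_Vec, against 22.4, 17.8 and 18.4 CPM in NC_Vec. All 3 libraries with STAT3 siRNA and empty vector lay far below all 3 with control siRNA and empty vector. The mean was 4.27 ± 0.275 CPM in siSTAT3_Vec and 19.5 ± 2.50 CPM in NC_Vec (SD, n = 3 each). SPARC thus fell 4.59-fold, with a log2 fold change of -2.20 ± 0.13 (SE, edgeR adjusted p = 6.44e-05).

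When HMGN5 was added to cells with STAT3 siRNA, SPARC was lower still. It had 2.41, 2.11 and 2.24 CPM in siSTAT3_HMGN5, and the values of siSTAT3_Vec given above did not overlap with these. The mean in siSTAT3_HMGN5 was 2.25 ± 0.150 CPM (SD, n = 3), from 48.0 to 53.9 estimated reads a library. The fall against siSTAT3_Vec was 1.89-fold, with a log2 fold change of -0.92 ± 0.13 (SE, edgeR adjusted p = 0.0108). Against NC_Vec, SPARC in siSTAT3_HMGN5 fell 8.67-fold, with a log2 fold change of -3.12 ± 0.14 (SE, edgeR adjusted p = 9.01e-06). These 3 comparisons share groups with each other, so they are not independent.

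In the siRNA experiment SPARC was also lower in siSTAT3 and in siHMGN5, by less, and did not pass the threshold in edgeR. It had 7.20 and 5.37 CPM in siSTAT3 and 6.28 and 5.89 CPM in siHMGN5. In NC it had 8.24, 9.74, 14.2 and 13.9 CPM. All 4 siSTAT3 and siHMGN5 libraries lay below all 4 NC libraries, and NC replicates 3 and 4 were the highest. The log2 fold change was -0.88 ± 0.29 for siSTAT3 against NC (SE, edgeR adjusted p = 0.188) and -0.91 ± 0.29 for siHMGN5 against NC (adjusted p = 0.185). Both comparisons use the same 4 NC libraries.

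In edgeR, the call for SPARC differed between the NC pairs. With all 4 NC libraries, DESeq2 called SPARC for siSTAT3 (adjusted p = 0.0277) and siHMGN5 (adjusted p = 0.0216). DESeq2 called 14.3% and 13.3% of all transcripts in these comparisons. Against NC replicates 1 and 2, the log2 fold change was -0.52 ± 0.20 for siSTAT3 (SE, edgeR adjusted p = 0.229) and -0.56 ± 0.20 for siHMGN5 (adjusted p = 0.223). Against NC replicates 3 and 4 it was -1.16 ± 0.20 for siSTAT3 (adjusted p = 0.0230) and -1.20 ± 0.20 for siHMGN5 (adjusted p = 0.0208), a setting in which 9.85% and 10.3% of all transcripts were called for siSTAT3 and for siHMGN5. SPARC itself was 0.64 ± 0.20 higher on the log2 scale in NC replicates 3 and 4 than in the other NC pair (adjusted p = 0.181). Between siSTAT3 and siHMGN5 themselves the log2 difference was 0.04 ± 0.32 (adjusted p = 0.997).

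**Figure D2:**
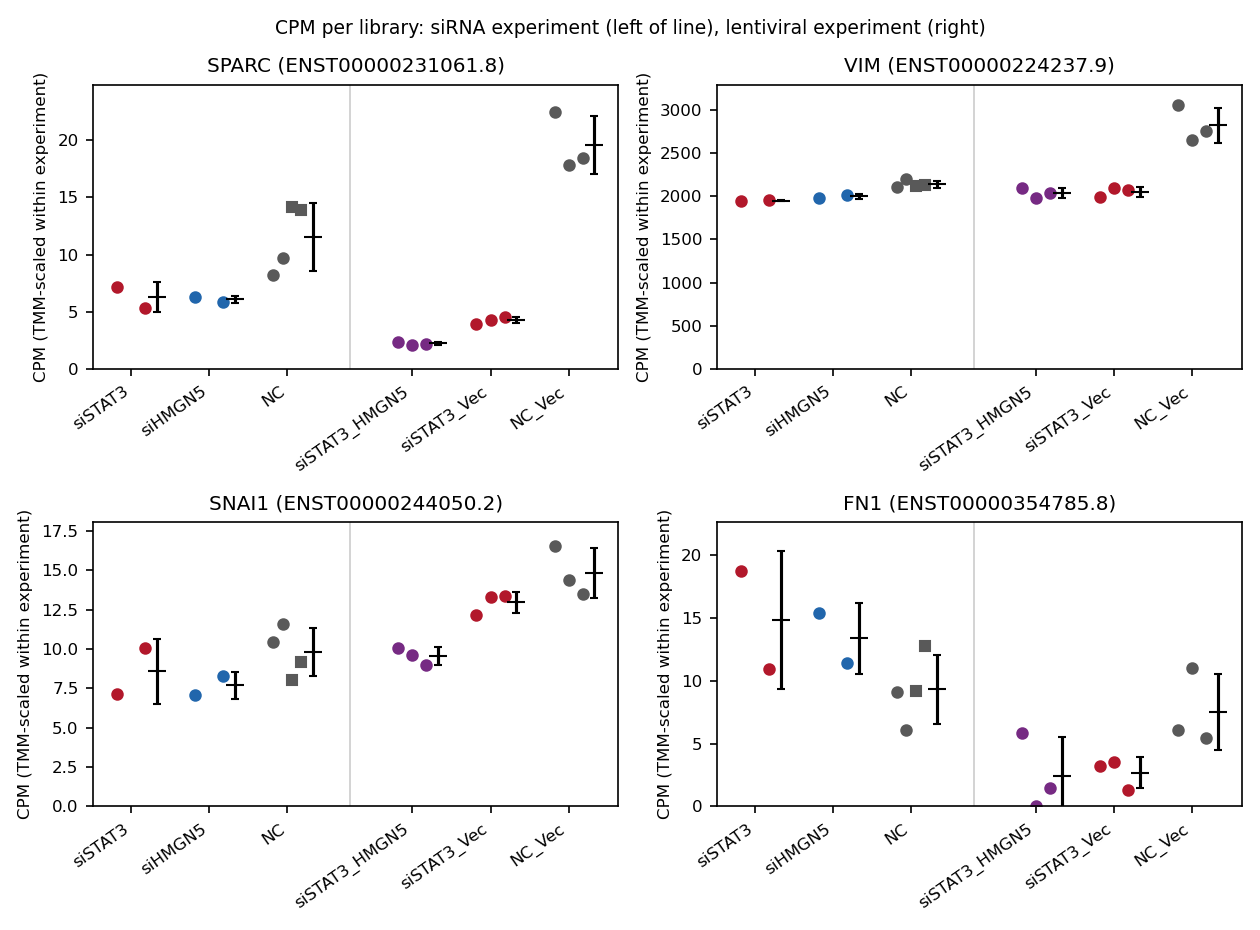
CPM of SPARC, VIM, SNAI1 and FN1 in each library, with the mean and SD beside each group (SD bars stop at 0); NC replicates 3 and 4 are squares. SPARC is at 2.11 to 2.41 CPM in siSTAT3_HMGN5, 3.98 to 4.54 CPM in siSTAT3_Vec and 17.8 to 22.4 CPM in NC_Vec.

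VIM fell in the lentiviral experiment by a smaller factor and on a far larger number of reads. It had 1987, 2095 and 2072 CPM in siSTAT3_Vec, against 3048, 2654 and 2753 CPM in NC_Vec. The 2 groups did not overlap, and the mean was 2051 ± 56.6 CPM in siSTAT3_Vec and 2818 ± 205 CPM in NC_Vec (SD, n = 3 each). VIM fell 1.37-fold, with a log2 fold change of -0.46 ± 0.05 (SE, edgeR adjusted p = 0.00124). Vimentin is the main intermediate filament protein of mesenchymal cells.

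With HMGN5 added to STAT3 siRNA, no difference in VIM beyond the error was found. VIM had 2095, 1981 and 2039 CPM in siSTAT3_HMGN5, values that overlapped with those of siSTAT3_Vec. The log2 fold change between these groups was -0.01 ± 0.05 (SE, edgeR adjusted p = 0.984). Against NC_Vec, VIM in siSTAT3_HMGN5 fell 1.38-fold, with a log2 fold change of -0.47 ± 0.05 (SE, edgeR adjusted p = 0.000692).

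Without lentivirus the differences in VIM were small. It had 1941 and 1954 CPM in siSTAT3 and 1979 and 2017 CPM in siHMGN5, against 2101, 2197, 2121 and 2132 CPM in NC. Neither siSTAT3 nor siHMGN5 overlapped with NC. The log2 fold change was -0.13 ± 0.05 for siSTAT3 against NC (SE, edgeR adjusted p = 0.266) and -0.10 ± 0.05 for siHMGN5 against NC (adjusted p = 0.442). The NC pairs differed by less than the error in VIM, with means of 2126 CPM in replicates 3 and 4 and 2149 CPM in replicates 1 and 2 (log2 difference -0.02 ± 0.03). Against either pair alone its edgeR adjusted p stayed above 0.05. For siSTAT3 it was 0.0722 (replicates 1 and 2) and 0.0812 (replicates 3 and 4). For siHMGN5 it was 0.176 and 0.186, in the same order. Against all 4 NC libraries, DESeq2 called VIM for siSTAT3 (adjusted p = 4.95e-06) and siHMGN5 (adjusted p = 0.00339). DESeq2 called 14.3% and 13.3% of all transcripts in these comparisons.

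**Figure D3:**
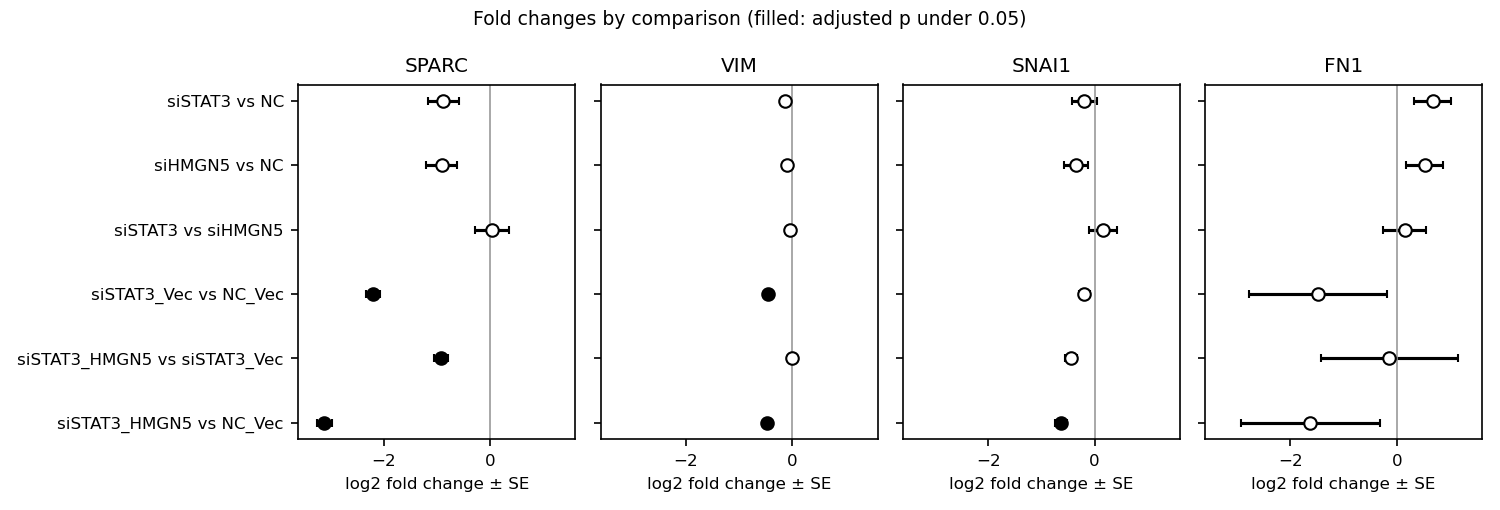
Log2 fold changes with their SE for SPARC, VIM, SNAI1 and FN1 in 6 comparisons, first group over second, with filled points for an adjusted p under 0.05. Filled points occur only in the lentiviral comparisons: SPARC in all 3, VIM in the 2 against NC_Vec, and SNAI1 in siSTAT3_HMGN5 against NC_Vec.

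The effect of STAT3 siRNA on both genes differed between the 2 experiments by a test of the difference itself. For SPARC the log2 fold change was -2.20 with empty vector and -0.88 without lentivirus, and the difference was -1.30 ± 0.30 (SE, edgeR interaction contrast over 17 libraries, adjusted p = 0.0231). For VIM it was -0.46 with empty vector and -0.13 without lentivirus, and the difference was -0.30 ± 0.07 (adjusted p = 0.0212). Both calls were lost in some fits with 1 library left out: that of SPARC without siSTAT3 replicate 1 (adjusted p = 0.149), NC_Vec replicate 1 (0.0556) or siSTAT3_Vec replicate 1 (0.0558), and that of VIM without siSTAT3 replicate 1 (0.104), siSTAT3 replicate 2 (0.1000) or siSTAT3_Vec replicate 1 (0.0652). Infection and experiment change together here, so they cannot be told apart. Comparing with 1 NC pair alone kept both calls. The difference was -1.66 (replicates 1 and 2) or -1.01 (replicates 3 and 4) for SPARC and -0.30 with either pair for VIM.

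**Figure D4:**
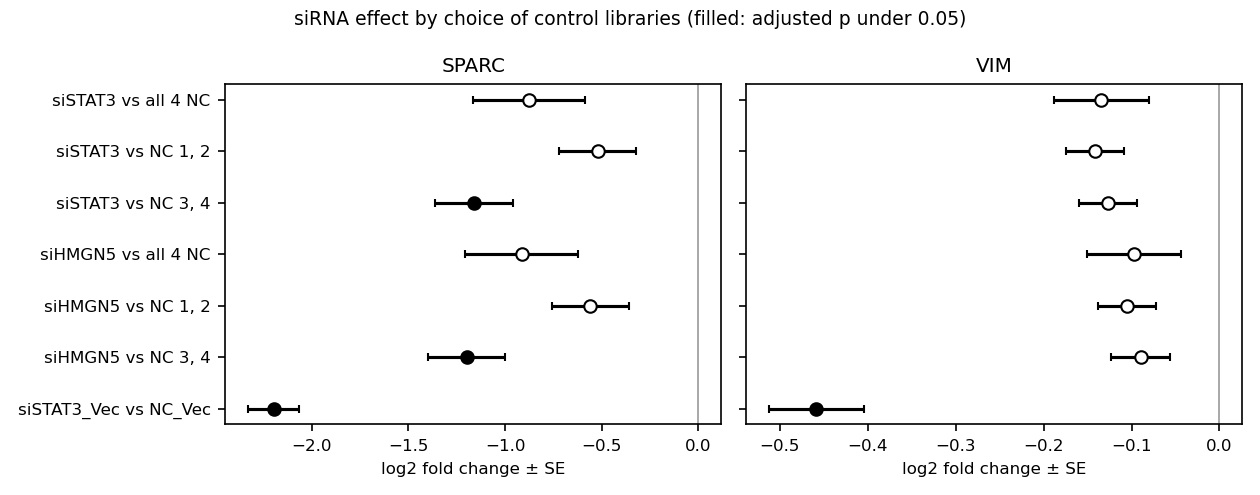
Log2 fold changes with their SE for SPARC and VIM in siSTAT3 and siHMGN5 against all 4 NC libraries or either NC pair, with siSTAT3_Vec against NC_Vec at the bottom; filled points have an adjusted p under 0.05. For SPARC the siSTAT3 value is -0.52 against NC replicates 1 and 2 and -1.16 against NC replicates 3 and 4, and for VIM it is -0.14 and -0.13.

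By length-corrected level, the order of the 6 groups can be given for both genes. The experiments differed in infection and may have been run apart, so this order needs caution. SPARC averaged 0.333 ± 0.018 TPM in siSTAT3_HMGN5, 0.632 ± 0.031 TPM in siSTAT3_Vec, 0.865 ± 0.192 TPM in siSTAT3 and 0.870 ± 0.086 TPM in siHMGN5 (SD). Its controls were the highest, with 1.84 ± 0.472 TPM in NC and 2.92 ± 0.185 TPM in NC_Vec. The neighbours siSTAT3 and siHMGN5 overlapped and the other neighbours did not. VIM averaged 564 ± 9.69 TPM in siSTAT3, 599 ± 25.6 TPM in siHMGN5, 636 ± 10.8 TPM in siSTAT3_Vec and 639 ± 24.4 TPM in siSTAT3_HMGN5 (SD). Its controls again came last in the order, with 721 ± 9.88 TPM in NC and 905 ± 17.5 TPM in NC_Vec. Only siSTAT3_Vec and siSTAT3_HMGN5 overlapped among neighbours of VIM.

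FN1, which encodes the matrix glycoprotein fibronectin, did not pass the test in any comparison. In the lentiviral experiment the transcript had 5.87, 0 and 1.43 CPM in siSTAT3_HMGN5, 3.20, 3.56 and 1.29 CPM in siSTAT3_Vec and 6.06, 11.0 and 5.44 CPM in NC_Vec. All siSTAT3_Vec libraries lay below all NC_Vec libraries, and siSTAT3_HMGN5 spread across both. The log2 fold change of siSTAT3_Vec against NC_Vec was -1.49 ± 1.30 (SE, edgeR adjusted p = 0.567). In the siRNA experiment FN1 had 18.7 and 11.0 CPM in siSTAT3, 15.4 and 11.4 CPM in siHMGN5 and 9.14, 6.11, 9.23 and 12.8 CPM in NC. The groups overlapped, with log2 fold changes of 0.67 ± 0.34 for siSTAT3 (adjusted p = 0.389) and 0.52 ± 0.34 for siHMGN5 (adjusted p = 0.523) against NC. Its values had opposite signs in the 2 experiments, and the test of that difference gave -2.13 ± 1.42 (adjusted p = 0.501). This is 1 transcript of 8905 bases of a gene known for many splice forms.

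SNAI1 fell in siSTAT3_HMGN5 against NC_Vec. It had 10.1, 9.61 and 8.97 CPM in siSTAT3_HMGN5, 12.2, 13.3 and 13.4 CPM in siSTAT3_Vec and 16.6, 14.4 and 13.5 CPM in NC_Vec. The 3 groups did not overlap in CPM, although siSTAT3_Vec and NC_Vec came close. Before scaling, siSTAT3_Vec replicate 3 and NC_Vec replicate 3 had the same 305 estimated reads. SNAI1 fell 1.55-fold in siSTAT3_HMGN5 against NC_Vec, with a log2 fold change of -0.63 ± 0.11 (SE, edgeR adjusted p = 0.00435). Against siSTAT3_Vec the log2 fold change of siSTAT3_HMGN5 was -0.44 ± 0.11, which did not pass (adjusted p = 0.0750; DESeq2 adjusted p = 0.00213). For siSTAT3_Vec against NC_Vec it was -0.19 ± 0.11 (adjusted p = 0.309).

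In the siRNA experiment SNAI1 did not separate the groups. It had 7.12 and 10.1 CPM in siSTAT3, 7.09 and 8.28 CPM in siHMGN5 and 10.4, 11.6, 8.01 and 9.18 CPM in NC, with overlap throughout. Log2 fold changes were -0.19 ± 0.23 for siSTAT3 (SE, edgeR adjusted p = 0.790) and -0.35 ± 0.23 for siHMGN5 (adjusted p = 0.535) against NC. NC replicates 1 and 2 were the higher pair for SNAI1, where replicates 3 and 4 were the higher pair for SPARC.

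The listed transcripts of the other transcription factors were at 0 in some or all libraries of each experiment. Other transcripts of these genes were not examined, so these values do not give the level of the genes. The ZEB1 transcript, which encodes a zinc finger repressor of CDH1, had 0.920, 1.27 and 0 CPM in siSTAT3_HMGN5, was listed at 0 in all 3 siSTAT3_Vec libraries and had 0, 1.14 and 3.80 CPM in NC_Vec. In the siRNA experiment it had 0 and 0.347 CPM in siSTAT3, 0.820 and 0 CPM in siHMGN5 and 2.38, 0, 2.87 and 1.96 CPM in NC. ZEB1 varied widely within groups, from 0 to 85.6 estimated reads in NC_Vec and from 0 to 54.4 in NC. Every set of groups overlapped, and ZEB1 did not pass the edgeR test in any comparison (adjusted p = 0.157 for siSTAT3_Vec against NC_Vec, where DESeq2 gave 0.0261). SNAI2, which encodes the repressor Slug, was listed at 0 in 12 libraries. Its reads, 4.22 to 18.1 a library, fell in 5 libraries: 1 of siSTAT3, 1 of NC, 1 of siSTAT3_Vec and 2 of NC_Vec.

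Both cadherin transcripts were also mostly at 0. CDH1 had 13.9 estimated reads in 1 of 2 siSTAT3 libraries, 56.0 in 1 of 3 siSTAT3_Vec libraries and 42.4 in 1 of 3 NC_Vec libraries. CDH2 had 33.8 estimated reads in 1 siSTAT3_HMGN5 library and 4.21 to 4.82 in 2 siSTAT3_Vec and 2 NC libraries. In no group did either transcript have reads in all libraries. Neither passed the filter on low counts in either experiment, so neither was tested there. No group showed a gain of either listed transcript across all its libraries, and a switch between E-cadherin and N-cadherin was not tested.

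Counted over the list, 6 of the 10 transcripts could be tested in each experiment (both of VIM, SPARC, FN1, SNAI1 and ZEB1). For siSTAT3_Vec against NC_Vec, 2 of the 6 passed, both lower (SPARC and VIM), beside 14.3% of all 69768 transcripts tested in either direction and 7.07% lower. Of the transcripts that averaged 10 CPM or more, as VIM did, 38.5% passed in either direction, and DESeq2 called 24.3% of all transcripts and 3 of the 6 (SPARC, VIM and ZEB1). For siSTAT3_HMGN5 against siSTAT3_Vec, 1 of 6 passed (SPARC, lower), beside 3.77% in either direction and 2.25% lower, and DESeq2 called 2 (SPARC and SNAI1) beside 11.6%. For siSTAT3_HMGN5 against NC_Vec, 3 of 6 passed, all lower (SPARC, VIM and SNAI1), beside 22.3% in either direction and 11.4% lower. At 10 CPM or more on average, the level of VIM and SNAI1 in this experiment, 51.2% of transcripts passed in that comparison in either direction and 24.3% passed as lower. The median log2 fold change of the 6 was -0.97 for siSTAT3_Vec against NC_Vec and -0.29 for siSTAT3_HMGN5 against siSTAT3_Vec, beside 0.02 and -0.01 over all transcripts. For siSTAT3_HMGN5 against NC_Vec it was -1.39, or -1.13 with the longer VIM transcript, listed at 0 in siSTAT3_HMGN5, set at its 3-read bound, beside 0.02 over all. The median of -0.97 lies midway between VIM (-0.46) and FN1 (-1.49 ± 1.30, SE, not called). That of -1.39 lies midway between FN1 (-1.62) and ZEB1 (-1.16), neither of them called. These medians therefore do not show a shift of the whole list.

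In the siRNA experiment no listed transcript passed the edgeR test. For siSTAT3 against NC the count was 0 of 6, beside 4.28% of 74346 transcripts, with 2 of 6 at an unadjusted p under 0.05, 2 by DESeq2 (SPARC and VIM, beside 14.3% of all) and 0 by limma-voom. For siHMGN5 against NC it was 0 of 6, beside 3.39%, with 1 at an unadjusted p under 0.05, 2 by DESeq2 (SPARC and VIM, beside 13.3% of all) and 0 by limma-voom. For siSTAT3 against siHMGN5 it was 0 of 6, beside 3.89%, with 0 at an unadjusted p under 0.05, 0 by DESeq2 and 0 by limma-voom. The median log2 fold change of the 6 was -0.16 for siSTAT3 and -0.22 for siHMGN5 against NC. In the fit of all 17 libraries, 8 of the 10 were tested. The effect of STAT3 siRNA differed between experiments for 2 of them (SPARC and VIM, both more negative with empty vector). This stood beside 5.51% of 86839 transcripts in either direction and 2.23% lower. At 10 CPM or more on average, as for VIM, 20.2% of transcripts passed in either direction and 7.8% passed as lower.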

How the data were processed

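Poly(A) RNA was sequenced in 17 libraries. Salmon 1.4.0, HOMER, Bowtie2 and CASAVA, and the builds hg38 and GRCh38, appear in the submitters' processing notes. Mapping options and the transcript release are not given in the sources used here. Deposited tables give, per the file headers, a length, an effective length, a TPM and an estimated count per transcript. The deposited expected counts need not be whole, since reads shared by transcripts are divided by a model. The deposited TPM values were used only to describe levels.

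Estimated counts were rounded and fitted per transcript with edgeR 4.0.16 in R 4.3.3 (TMM, filterByExpr, quasi-likelihood test, Benjamini-Hochberg adjustment over all transcripts tested, threshold 0.05). The siRNA and lentiviral experiments were fitted apart, and their difference was an interaction contrast over 17 libraries. SE is the fold change divided by the root of the test statistic. DESeq2 1.42.0, limma 3.58.1 (voom), other scalings and filters, each NC pair and leaving out each library were alternatives. The model code was tested on simulated data. Every listed transcript is described, with values per library for those averaging 1 CPM or more in either experiment. Sums per gene, a wider list of transition genes and the knockdown check were not run, because only the 10 transcripts are paired with names here. The list was chosen with earlier results of these data known.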

Additional observations from a re-analysis of the deposited data

Results flagged for a closer look

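The effect of STAT3 siRNA on SPARC and on VIM differed between the lentiviral and the siRNA experiment by a test of the difference itself. For SPARC the difference of log2 fold changes, lentiviral minus siRNA, was -1.30 ± 0.30 (SE, edgeR adjusted p = 0.0231). For VIM it was -0.30 ± 0.07 (SE, edgeR adjusted p = 0.0212). Of all transcripts tested, 5.51% were called for this difference, and 20.2% of those averaging 10 CPM or more, as VIM did. In both genes every STAT3 siRNA library was below every control library of its own experiment. The share of all transcripts separated in this way was not counted. Each call was lost in 3 of the 17 fits that left out 1 library, with an adjusted p of up to 0.149 for SPARC and up to 0.104 for VIM. Infection and experiment cannot be told apart.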

How the results depend on the processing

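Over all alternatives for single transcripts, 577 values kept their direction and their side of the threshold, 22 changed sign, 8 gained and 7 lost a call. In siSTAT3_Vec against NC_Vec, SPARC and VIM were called in every alternative run (adjusted p at most 0.00136 and 0.00810), as was SPARC in siSTAT3_HMGN5 against siSTAT3_Vec (at most 0.0490) and SNAI1 in siSTAT3_HMGN5 against NC_Vec (at most 0.0194).

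The number of listed transcripts called changed as follows. DESeq2 called 2 for siSTAT3 against NC, 2 for siHMGN5 against NC, 2 for siSTAT3_HMGN5 against siSTAT3_Vec and 3 for siSTAT3_Vec against NC_Vec. Against NC replicates 3 and 4 only, 1 was called for siSTAT3 and 1 for siHMGN5. For the difference between experiments, leaving out 1 library gave 0 to 2 calls, and leaving out any 1 library changed no other count. Replicate numbers did not pair samples: correlations of deviations between samples of the same number were -0.0887 to 0.0520 over 9 lentiviral pairs and -0.00346 to 0.0420 over 6 siRNA pairs. With the replicate block, the difference between experiments had 1 call, SPARC, as VIM missed the threshold (-0.30, adjusted p = 0.0644), ZEB1 changed sign in siSTAT3 against NC (0.25) and in siSTAT3 against siHMGN5 (1.59), and no other call changed. SNAI1 changed sign in the difference between experiments against NC replicates 3 and 4 only (-0.16). The cause was not tested.

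With 1 library left out, values that changed sign ranged, for siSTAT3 against siHMGN5, from -0.11 to 0.39 (SNAI1), -5.98 to 4.66 (ZEB1), -0.29 to 0.49 (FN1) and -0.19 to 0.24 (SPARC). For siSTAT3_HMGN5 against siSTAT3_Vec they ranged from -0.036 to 0.011 (VIM) and -1.88 to 0.45 (FN1). The range was -0.46 to 0.034 for SNAI1 in siSTAT3 against NC and -1.81 to 0.35 for ZEB1 in siSTAT3_HMGN5 against NC_Vec, and for the difference between experiments -0.20 to 0.29 (SNAI1) and -5.66 to 0.090 (ZEB1). None of these was called.

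Over all transcripts, DESeq2 called 10650 against 3181 (siSTAT3 against NC), 9904 against 2521 (siHMGN5 against NC), 10178 against 2893 (siSTAT3 against siHMGN5), 16965 against 9953 (siSTAT3_Vec against NC_Vec), 8078 against 2631 (siSTAT3_HMGN5 against siSTAT3_Vec) and 11074 against 4784 (difference between experiments). The block gave 1622, 902 and 1156 for siSTAT3 and siHMGN5 against NC and siSTAT3_HMGN5 against siSTAT3_Vec. Leaving out 1 library lowered these counts to as few as 775 (siSTAT3 against NC, without siSTAT3 replicate 2), 551 (siHMGN5 against NC, without siHMGN5 replicate 2), 844 (siSTAT3 against siHMGN5, without siSTAT3 replicate 1), 1190 (siSTAT3_HMGN5 against siSTAT3_Vec, without siSTAT3_Vec replicate 2) and 3061 (difference between experiments, without siSTAT3 replicate 1). Sums per gene were not run, because transcripts are paired with names only for the 10 listed. Transcripts with few reads set the limit: a value near 3 reads a library shows no difference at this depth. The 3-read floor covers counting error only.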
